A study of Homo sapiens with 10 samples.

Results

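Of the 58051 gene rows shared by both deposited tables, 10 are described here: IGF2, H19, DLK1, MEG3, MEST, PEG10, PHLDA2, CDKN1C, L3MBTL1 and ZDBF2. They were chosen by name as genes subject to genomic imprinting, with earlier results of these data known. All 10 had a row in both tables and passed the filter on low counts. RNA was sequenced from wild type HAP1 cells (3 libraries), RBM4 KO clone 1 (3 libraries) and RBM4 KO clone 2 (2 libraries) with paired-end reads, and from 1 wild type and 1 RBM4 KO library with single-end reads, for which the labels used here do not say which clone was sequenced. HAP1 is a near-haploid adherent human cell line derived from the KBM-7 leukaemia line, and RBM4 encodes an RNA-binding protein known for its part in splicing and translation. Each knockout is 1 clone, so what RBM4 loss did and what sets 1 clone apart from its parent line cannot be told apart within a clone. The labels do not tell whether replicates are separate cultures, and the p-values therefore measure only the spread among these libraries, which may be technical.

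Imprinted genes are transcribed from the chromosome of a single parent, as set by DNA methylation laid down in egg or sperm at imprinting control regions. Many of them act on growth before birth. IGF2, a growth factor made mostly from the paternal chromosome, and H19, a non-coding RNA made from the maternal one, share an imprinting control region bound by the insulator protein CTCF. Methylated copies of such regions are recognised by the zinc finger protein ZFP57, which binds the methylated hexamer TGCCGC. In a near-haploid cell most chromosomes are present as a single parental copy, so the parental origin of that copy matters for which imprinted genes can be read. The parental origin of each chromosome was not examined here.

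The start regions of 3 members with called differences and of H19, whose level did not differ detectably, are shown for their CpG dinucleotides, where DNA methylation falls. They come from RefSeq (GRCh38.p14), run 5′ to 3′ on the strand of the gene from 250 bases before the annotated start to 50 after it, and carry every CpG in capitals. Where a gene has several start regions, the one with the most CpGs is shown, and it need not be the region that carries the imprint. Of the 10 members, 5 matched the RefSeq promoter table, with 13 start regions among 35116.
MEST, chr7:130491835-130492134, plus strand: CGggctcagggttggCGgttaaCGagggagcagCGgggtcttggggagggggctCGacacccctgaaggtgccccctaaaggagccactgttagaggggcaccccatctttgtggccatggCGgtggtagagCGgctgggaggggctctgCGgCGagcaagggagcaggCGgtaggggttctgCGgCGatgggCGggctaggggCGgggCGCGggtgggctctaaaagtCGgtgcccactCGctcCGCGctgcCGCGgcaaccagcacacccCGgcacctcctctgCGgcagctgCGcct
L3MBTL1, chr20:43507447-43507746, plus strand: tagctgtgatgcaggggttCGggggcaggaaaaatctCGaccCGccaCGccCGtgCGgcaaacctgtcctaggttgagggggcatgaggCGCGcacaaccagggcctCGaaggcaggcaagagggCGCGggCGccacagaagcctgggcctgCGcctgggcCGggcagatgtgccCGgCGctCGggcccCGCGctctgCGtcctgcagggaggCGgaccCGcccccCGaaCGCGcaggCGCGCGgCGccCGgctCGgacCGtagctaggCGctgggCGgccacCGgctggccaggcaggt
ZDBF2, chr2:206274760-206275059, plus strand: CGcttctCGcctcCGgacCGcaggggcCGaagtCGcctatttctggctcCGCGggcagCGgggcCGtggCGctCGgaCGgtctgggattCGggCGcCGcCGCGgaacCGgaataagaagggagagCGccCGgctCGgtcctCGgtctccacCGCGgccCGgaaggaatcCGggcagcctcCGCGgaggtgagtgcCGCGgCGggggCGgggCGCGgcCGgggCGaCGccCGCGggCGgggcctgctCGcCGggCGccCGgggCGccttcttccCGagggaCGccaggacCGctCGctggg
H19, chr11:2001217-2001516, minus strand: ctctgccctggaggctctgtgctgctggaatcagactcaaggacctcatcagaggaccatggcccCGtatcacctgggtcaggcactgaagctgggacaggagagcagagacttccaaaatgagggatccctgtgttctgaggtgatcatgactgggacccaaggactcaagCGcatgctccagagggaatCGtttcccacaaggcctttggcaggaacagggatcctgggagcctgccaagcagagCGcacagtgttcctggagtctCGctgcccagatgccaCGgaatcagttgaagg

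The median start region in the table held 14 CpGs, with quartiles of 4 and 28. The ZDBF2 region shown held 50 CpGs, more than 98.7% of start regions, and the L3MBTL1 region held 35. The MEST region held 25 CpGs and 3 matches to TGCCGC on either strand. The regions of L3MBTL1 and ZDBF2 held 1 match each, and that of H19 held 6 CpGs and no match. For genes with several starts the region richest in CpGs was chosen, so a high count was built in. The other start region of ZDBF2 held 18 CpGs and that of L3MBTL1 held 9, both with no match. The other MEST regions held 13 to 22 CpGs and 0 to 2 matches. TGCCGC occurred on either strand in 16.7% of all start regions of this length. A match to these letters is a description of the sequence, since methylation was not measured.

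MEST, H19 and MEG3 also contain microRNA genes within their bounds. The 5p arms are printed, with the seed (bases 2 to 8) in capitals, because a host gene and its microRNA can be read from the same transcript, and no seed is shared among them.
hsa-miR-335-5p (within MEST): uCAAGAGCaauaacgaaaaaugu
hsa-miR-675-5p (within H19): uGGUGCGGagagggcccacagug
hsa-miR-770-5p (within MEG3): uCCAGUACcacgugucagggcca

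Mature microRNAs are too short to be measured by libraries of this kind, and the rows of MIR335 and MIR770 held no counts in any library.

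The paired-end libraries held 33192095 to 55617525 counts, and the single-end libraries held 44140706 (wild type) and 41265510 (knockout). RBM4 itself, the targeted gene, had mean levels of 79.4 ± 0.651 CPM (counts scaled to a common library size with TMM factors) in wild type (SD, n = 3), 23.2 ± 1.11 in clone 1 (SD, n = 3) and 25.5 ± 0.369 in clone 2 (SD, n = 2). Of 9 blood marker genes chosen for the KBM-7 origin, 3 had no count and the summed level of all 9 was 0.0722 to 0.285 CPM over the libraries. A summed level of 41.0 to 47.2 CPM for 4 epithelial markers in wild type compared with 56.3 to 64.3 in clone 1 and 68.6 to 75.4 in clone 2, where 2 of the 3 tested were called higher in the mean of the clones. For 7 fibroblast markers, of which DCN, LUM and COL1A2 had no count, the summed levels were 13.5 to 14.4, 19.3 to 23.8 and 26.3 to 26.9 CPM, and 1 of the 2 tested was called higher. The 4 pluripotent stem cell markers summed to 1159 to 1247 CPM in wild type. Their sum was 1075 to 1228 CPM in clone 1 and 1046 to 1229 in clone 2. Of the 2 tested, 1 was called lower, while the 1 trophoblast marker tested, of 5, was not called. Only 2 fibroblast and 2 pluripotent markers passed the filter on low counts. Those sums therefore rest almost wholly on them and do not describe each set as a whole. The part of these marker differences in the results was not tested, and fewer cells of a type cannot be told apart from less RNA per cell in bulk libraries.

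Gene levels also followed base composition differently in the 2 genotypes, and this bears on every comparison with wild type. Across 19549 tested genes, the Spearman correlation of a library's level relative to the other libraries with GC content was -0.413, -0.343 and -0.249 in the wild type libraries, 0.28, -0.0168 and 0.392 in those of clone 1, with 0.35 and -0.0496 in those of clone 2, given as a description over genes that share a library. The median log2 fold change of the clones' mean against wild type was -0.15 for genes under 40% GC and 0.13 for genes of at least 60% GC. Over all features 2047 were called higher and 1678 lower in that comparison, and with a GC correction 1418 higher and 1790 lower. A fit with a GC correction per library is therefore quoted for the members it affects. Clone 1 replicates 2 and 3 and clone 2 replicate 2 carried running numbers 11 to 13 in their column names, and all other paired-end libraries carried 1 to 5. Values from numbers 1 to 5 alone, which hold all wild type libraries and 1 library of each clone, are therefore given as well. Each clone is 1 library in that fit, and its spread is assumed to be that of the wild type libraries, so the p-values there do not rest on replicates of a clone.

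IGF2 had the largest fold change of the members, 4.98-fold in clone 1 and 5.88-fold in clone 2, while its neighbour H19 did not pass the test in either clone. MEST, DLK1 and L3MBTL1 rose in clone 2, by 2.75-fold, 2.97-fold and 4.58-fold. PEG10 and PHLDA2 rose in both clones, ZDBF2 fell slightly, and the values of MEG3 and CDKN1C did not pass the test in the mean of the clones. The call rule throughout was a Benjamini-Hochberg adjusted p below 0.05 in edgeR's quasi-likelihood test over all 20747 features tested. In clone 1, 4 of the 10 members were called (3 higher, 1 lower), beside 16% of all features (9.37% higher, 6.64% lower). In clone 2, 6 were called, all higher, beside 10.8% of all features called in either direction, 6.18% higher and 4.59% lower. In the mean of the clones 7 were called (6 higher, 1 lower), beside 18% of all features (9.87% higher, 8.09% lower). Calls of the same direction in both clones were made for IGF2, PEG10 and PHLDA2, all higher, beside 4.42% of all features called higher and 3.09% called lower in both. The median log2 fold change of the members was 0.49 in clone 1, 1.31 in clone 2 and 0.99 in the mean of the clones, and the median of all features was -0.0018, 0.0102 and 0.0020. The clone comparisons share the wild type libraries, so they are not independent of each other. The members were chosen with earlier results of these data known, so their shares and medians say nothing about imprinted genes as a class. With the GC correction 2 members were called in clone 1, beside 13% of all features. The count was also 2 without wild type replicate 1, wild type replicate 3 or clone 1 replicate 3, beside 7.79%, 11.2% and 12.8%.

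**Figure D1:**
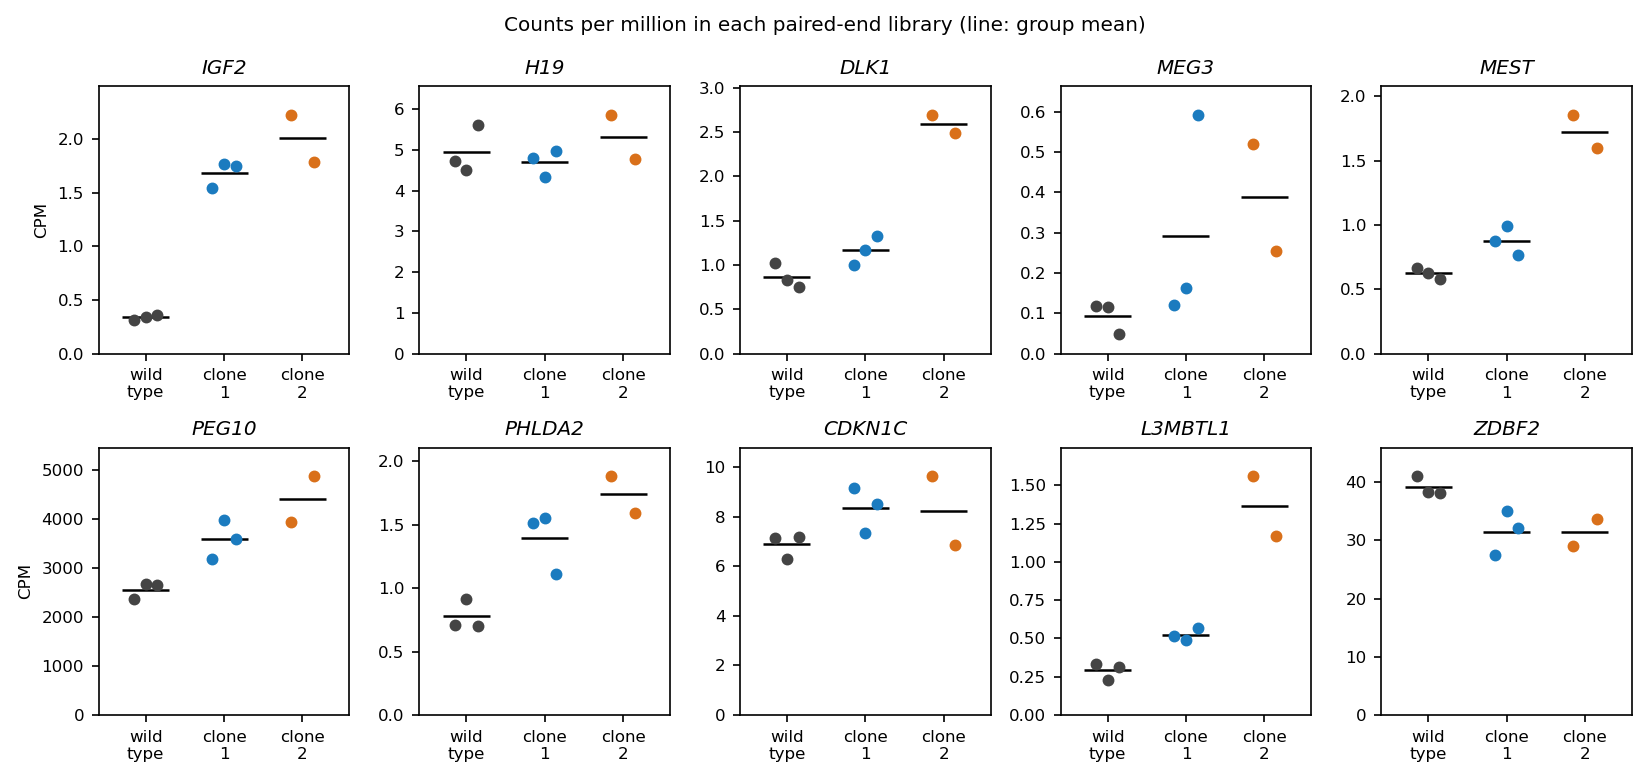
Levels of the 10 imprinted genes in each paired-end library, in CPM on a linear axis from 0; each point is 1 library and each line a group mean (wild type n = 3, clone 1 n = 3, clone 2 n = 2). For IGF2 the wild type points lie between 0.309 and 0.364 and all knockout points between 1.54 and 2.23, whereas the H19 points of all groups overlap.

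IGF2 (ENSG00000167244) lies on chromosome 11 from 2129112 to 2149603 on the minus strand (GRCh38, GENCODE 29, as for all gene coordinates below), and encodes insulin-like growth factor II. Its level was 0.309, 0.342 and 0.364 CPM in the wild type libraries, 1.54, 1.77 and 1.75 CPM in clone 1, whereas clone 2 held 2.23 and 1.78 CPM. All 5 knockout libraries lay above all 3 wild type libraries, and the lower clone 2 library stood just above the highest clone 1 library. Relative to wild type, the log2 fold change was 2.32 (SE 0.22, edgeR adjusted p = 1.58e-05) in clone 1 and 2.56 (SE 0.24, adjusted p = 8.34e-06) in clone 2. Clone 2 and clone 1 differed by a log2 value of 0.24 (adjusted p = 0.805), which did not pass the test. The gene was near the lower end of detection in wild type, with 40 reads over the 3 libraries against 220 in clone 1 and 174 in clone 2. From those sums the ratio to wild type was 5.05 in clone 1 (95% exact interval 3.59 to 7.26) and 5.89 in clone 2 (4.16 to 8.53), intervals that cover counting error only. In libraries numbered 1 to 5 alone, the log2 fold change of the mean of the clones was 2.44 (adjusted p = 3.03e-05), and with the GC correction it was 2.26.

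The single-end pair held 72 IGF2 counts in wild type and 153 in the knockout, or 1.63 and 3.71 CPM. The log2 ratio was 1.16 with a counting interval of 0.77 to 1.61, from 1 library a side and with no replicate check. The direction was that of the paired-end libraries. The ratio was smaller than their log2 fold changes of 2.32 in clone 1 and 2.56 in clone 2. No source used says whether the single-end and paired-end tables were counted in the same way, so levels are compared only within a table. The rows for INS-IGF2, a readthrough of the insulin and IGF2 genes, and for ENSG00000240801, a non-coding transcript, overlap IGF2 on the same strand, so the counting can have split reads among them. INS-IGF2 held 65 counts and ENSG00000240801 held 54 over the paired-end libraries, and both were called higher in the mean of the clones, with log2 fold changes of 1.74 and 2.70. The antisense gene IGF2-AS held 2 counts. No source used says whether strand was used in the counting.

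H19 (ENSG00000130600, chromosome 11 from 1995176 to 2001470, minus strand) is the non-coding RNA governed by the same control region. Its level was 4.72, 4.51 and 5.63 CPM in wild type, 4.80, 4.33 and 4.99 CPM in clone 1, against 5.87 and 4.78 CPM for clone 2. The 3 groups overlapped. The log2 fold change was -0.08 in clone 1 (SE 0.13) and 0.10 in clone 2 (SE 0.14), and for the mean of the clones it was 0.01 (SE 0.12, edgeR adjusted p = 0.969). The sign of this value changed among the alternatives, from -0.19 with the GC correction to 0.10. From the summed reads the ratio to wild type was 0.936 in clone 1 (95% exact interval 0.834 to 1.05) and 1.06 in clone 2 (0.938 to 1.2), which bounds the counting error alone. In the single-end pair H19 stood at 22.7 CPM in wild type and 18.6 CPM in the knockout, a log2 ratio of -0.29 (counting interval -0.43 to -0.15).

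PHLDA2 and CDKN1C lie within the imprinted cluster centred on KCNQ1 on the same chromosome, and both are known as restrainers of growth made from the maternal copy. PHLDA2 (ENSG00000181649, from 2928273 to 2929455), a small protein with a pleckstrin homology domain known to limit placental growth, had 0.712, 0.913 and 0.703 CPM in wild type, 1.51, 1.55 and 1.11 CPM in clone 1, whereas clone 2 held 1.88 and 1.59 CPM. Every knockout library was above every wild type library. The fitted log2 fold change was 0.85 (SE 0.22, edgeR adjusted p = 0.0182) in clone 1 and 1.16 (SE 0.23, adjusted p = 0.00552) in clone 2. PHLDA2 has 63.1% GC, and with the GC correction the clone 1 value was 0.66 (adjusted p = 0.0777). The clone 1 call was also lost without wild type replicate 1 (adjusted p = 0.0880), wild type replicate 3 (0.0682) or clone 1 replicate 2 (0.0663), and the clone 2 call without clone 2 replicate 1 (0.0659). The mean of the clones stayed called under all alternatives run, with log2 fold changes of 0.73 to 1.13. In the single-end pair PHLDA2 was at 0.884 CPM in wild type and 0.751 CPM in the knockout, from 39 and 31 counts, a log2 ratio of -0.22 with an interval of -0.96 to 0.48.

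CDKN1C (ENSG00000129757, from 2883213 to 2885773), the cyclin-dependent kinase inhibitor p57, had 7.15, 6.31 and 7.18 CPM in wild type, 9.15, 7.33 and 8.51 CPM in clone 1, against 9.63 and 6.84 CPM for clone 2. Clone 1 lay above wild type throughout and clone 2 straddled it. The log2 difference of the mean of the clones was 0.26 (SE 0.12, edgeR adjusted p = 0.160), which did not pass the test. With the GC correction it was 0.06. In libraries numbered 1 to 5 alone it was 0.44 (adjusted p = 0.00866), and it was also called with a term for the running number (0.45, adjusted p = 0.0124) and without clone 2 replicate 2 (0.37, adjusted p = 0.0388).

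DLK1 and MEG3 are the best known pair of the imprinted cluster on chromosome 14. DLK1 (ENSG00000185559, from 100725705 to 100738224, plus strand), a transmembrane ligand related to the Notch ligands and made from the paternal copy, had 1.02, 0.828 and 0.752 CPM in wild type and 0.997, 1.17 and 1.33 CPM in clone 1. In clone 2 it had 2.70 and 2.49 CPM. Clone 1 overlapped wild type, and clone 2 was above both. Its log2 difference was 0.43 (SE 0.21, edgeR adjusted p = 0.175) in clone 1 and 1.57 (SE 0.21, adjusted p = 0.000221) in clone 2. The difference between the clones was itself called, at 1.14 (SE 0.20, adjusted p = 0.00597), although not in libraries numbered 1 to 5 alone (1.42, adjusted p = 0.0735) nor without clone 2 replicate 1 (1.09, adjusted p = 0.0588). The mean of the clones was 1.00 (adjusted p = 0.00201), a call lost when all knockout libraries were fitted as 1 group (adjusted p = 0.0799). The single-end values were 0.997 and 1.84 CPM, a log2 ratio of 0.86 with an interval of 0.33 to 1.46.

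MEG3 (ENSG00000214548, from 100779410 to 100861031, plus strand), a non-coding RNA of the maternal copy, was near the limit of detection, with 11 counts over the wild type libraries, 37 over clone 1 and 33 over clone 2. Its level was 0.119, 0.114 and 0.0485 CPM in wild type, 0.121, 0.162 and 0.592 CPM in clone 1, whereas clone 2 held 0.520 and 0.255 CPM. All knockout libraries lay above all wild type libraries, but the lowest clone 1 library stood beside the highest wild type library, clone 2 lay within the range of clone 1, and clone 1 replicate 3 held 24 of the 37 counts of that clone. The log2 difference was 1.81 in the mean of the clones (SE 0.64, edgeR adjusted p = 0.0677), which did not pass the test, and its adjusted p ranged from 0.00537 to 0.207 over the alternatives. In libraries numbered 1 to 5 alone the value was 0.37 in clone 1 and 2.43 in clone 2, the latter called (adjusted p = 0.0295). The single-end pair held 6 counts in wild type and 34 in the knockout, a log2 ratio of 2.25 with an interval of 1.33 to 4.14.

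MEST and PEG10 are both on chromosome 7 and both are made from the paternal copy. MEST (ENSG00000106484, from 130486171 to 130506465, plus strand), a member of the alpha/beta hydrolase fold family, had 0.665, 0.628 and 0.582 CPM in wild type, 0.876, 0.993 and 0.765 CPM in clone 1, against 1.86 and 1.59 CPM for clone 2. The groups followed that order without overlap. The log2 fold change was 0.50 (SE 0.23, edgeR adjusted p = 0.154) in clone 1 and 1.46 (SE 0.23, adjusted p = 0.000912) in clone 2. The difference between the clones was 0.96 (SE 0.22, adjusted p = 0.0352), a call that was lost in 12 of 18 alternatives, with values of 0.86 to 1.07 throughout and adjusted p up to 0.325; these 12 included every fit that left out 1 library. In the single-end pair MEST was at 0.816 and 1.36 CPM, a log2 ratio of 0.70 with an interval of 0.10 to 1.38. COPG2, which overlaps the end of MEST on the other strand, held 6405 paired-end counts and had a log2 difference of -0.11 in the mean of the clones (adjusted p = 0.324).

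PEG10 (ENSG00000242265, from 94656325 to 94669695, plus strand) is a gene derived from a retrotransposon and needed for the placenta. Its level was 2353, 2661 and 2644 CPM in wild type, 3169.9, 3981 and 3581 CPM in clone 1, whereas clone 2 held 3929.7 and 4865 CPM. All knockout libraries were above all wild type libraries. The log2 fold change was 0.49 (SE 0.10, edgeR adjusted p = 0.00623) in clone 1 and 0.78 (SE 0.11, adjusted p = 0.00058) in clone 2, and the clone 1 call was lost without clone 1 replicate 3 (adjusted p = 0.0522). In libraries numbered 1 to 5 alone the values were 0.31 (adjusted p = 0.0195) in clone 1 and 0.61 (adjusted p = 0.000248) in clone 2. The single-end values were 2660.1 and 4819 CPM, a log2 ratio of 0.86 (interval 0.85 to 0.87). SGCE, the paternally expressed neighbour that overlaps its start on the other strand, had a log2 difference of 0.09 in the mean of the clones (adjusted p = 0.328).

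L3MBTL1 (ENSG00000185513, chromosome 20 from 43489442 to 43550950, plus strand), which encodes a reader of methylated histone lysines related to Polycomb proteins, had 0.332, 0.228 and 0.315 CPM in wild type, 0.514, 0.487 and 0.568 CPM in clone 1, against 1.56 and 1.17 CPM for clone 2. The groups followed that order without overlap. The log2 fold change was 0.82 (SE 0.30, edgeR adjusted p = 0.0831) in clone 1, which did not pass the test, and 2.19 (SE 0.29, adjusted p = 0.000221) in clone 2. The clones differed by 1.38 (SE 0.26, adjusted p = 0.0123). That call was lost in libraries numbered 1 to 5 alone (1.59, adjusted p = 0.164), without clone 1 replicate 2 (adjusted p = 0.0668) and without clone 2 replicate 1 (adjusted p = 0.204). In the single-end pair L3MBTL1 was at 0.385 and 1.53 CPM, a log2 ratio of 1.86 with an interval of 1.2 to 2.85.

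ZDBF2 (ENSG00000204186, chromosome 2 from 206274663 to 206314438, plus strand), a zinc finger gene of the paternal copy, was the only member called lower. It stood at 41.1, 38.3 and 38.1 CPM in wild type, 27.5, 35.0 and 32.2 CPM in clone 1, whereas clone 2 held 29.1 and 33.7 CPM. All knockout libraries were below all wild type libraries. The log2 fold change was -0.31 (SE 0.09, edgeR adjusted p = 0.0284) in clone 1, -0.32 (SE 0.10, adjusted p = 0.0548) in clone 2 and -0.31 (SE 0.08, adjusted p = 0.0140) in the mean of the clones. ZDBF2 has 38.1% GC, the lowest of the members, and with the GC correction the mean of the clones was -0.18 (adjusted p = 0.0636). The call was also lost without wild type replicate 1 (adjusted p = 0.0758), and that of clone 1 without any of the wild type libraries or without clone 1 replicate 1 or 3 (adjusted p 0.0508 to 0.109). In libraries numbered 1 to 5 alone the mean of the clones was -0.47 (adjusted p = 9.51e-05). The single-end pair went the other way, from 25.9 CPM in wild type to 34.3 CPM in the knockout, a log2 ratio of 0.40 (interval 0.29 to 0.52).

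**Figure D2:**
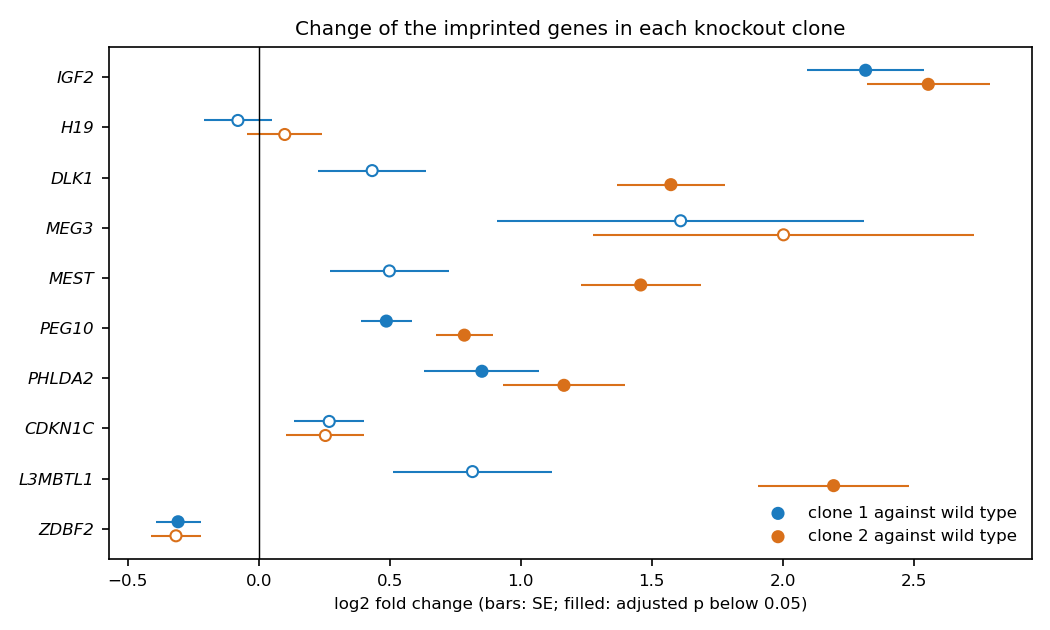
Log2 fold change of each of the 10 imprinted genes in clone 1 and clone 2 against wild type, with standard errors as bars; filled points have an adjusted p below 0.05. Both IGF2 points lie above 2.3 with overlapping error bars, while for DLK1, MEST and L3MBTL1 the clone 2 point lies to the right of the clone 1 point without overlap of the bars.

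Counted over the members, 6 had every knockout library above every wild type library (IGF2, MEG3, MEST, PEG10, PHLDA2 and L3MBTL1) and 1 had every knockout library below (ZDBF2), beside 13.5% and 11.8% of all features. Between the clones, 3 members were called, all higher in clone 2 (DLK1, MEST and L3MBTL1), beside 2.09% of all features called in either direction and 1.1% called higher. That count was 1 without clone 1 replicate 2, where 1.56% of all features were called. None of the 3 calls was kept in libraries numbered 1 to 5 alone or without clone 2 replicate 1. Those fits hold 1 library of clone 2, and fewer features of any kind were called in them. The members called higher in the mean of the clones had GC contents between 44.8% (PEG10) and 63.1% (PHLDA2), and all of them kept that call with the GC correction.

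**Figure D3:**
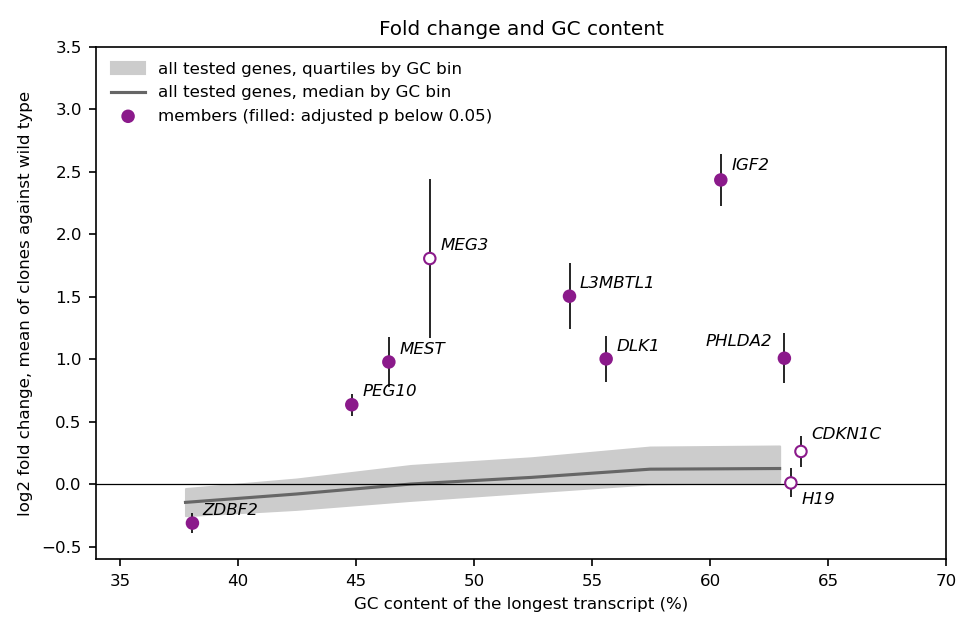
Log2 fold change of the clones' mean against wild type plotted against the GC content of each gene's longest transcript in percent, with standard errors as bars; the line and grey band show the median and quartiles of all tested genes in GC bins. The band rises from -0.15 below 40% GC to 0.13 at 60% and above, and the called points of the 6 raised members lie above the band.

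Per kilobase of exon, the order of the levels in wild type was PEG10, ZDBF2, CDKN1C, H19, PHLDA2, DLK1, MEST, IGF2, L3MBTL1 and MEG3, and no neighbours in that order overlapped between libraries. The levels ran from 382 CPM per kb for PEG10 through 3.59 for ZDBF2 to 0.00404 for MEG3. IGF2 stood at 0.0485 CPM per kb in wild type, below MEST at 0.130. In clone 1 IGF2 stood at 0.242, where its libraries overlapped those of DLK1 at 0.220 CPM per kb. In clone 2 it stood at 0.288, below MEST at 0.360 and DLK1 at 0.488. H19 and PHLDA2 did not overlap in wild type, at 1.71 and 0.813 CPM per kb, but did in both clones, at 1.62 and 1.46 in clone 1 and at 1.84 and 1.82 in clone 2. ZDBF2 and CDKN1C changed places, and in both clones their libraries overlapped. Exon length is the union of annotated exons, so a gene read from few of its exons is understated on this scale.

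Other imprinted genes were followed in a list of 82 names, of which 77 had a row, 18 had no count in any paired-end library and 41 were tested. In the mean of the clones 10 were called (6 higher, 4 lower), or 24.4% of those tested beside 18% of all features, and the list's median log2 fold change was 0.04. The 6 called higher were DLX5, a homeobox gene (0.42), the potassium channel gene KCNQ1 (0.93), the transporter gene SLC22A18 (0.71), INS-IGF2 (1.74), the retrotransposon-derived RTL9 (0.92) and the IGF2 scavenger receptor gene IGF2R (0.17). KCNQ1, host of the cluster that holds CDKN1C and PHLDA2, stood at 1.02 CPM in wild type (SD 0.104, n = 3), 2.02 in clone 1 (SD 0.0937, n = 3) and 1.88 in clone 2 (SD 0.348, n = 2), with no overlap between knockout and wild type libraries. The 4 called lower were RB1, the retinoblastoma tumour suppressor gene (-0.29), the ubiquitin ligase gene UBE3A (-0.20), RHOBTB3 (-0.18) and TFPI2. RB1 and UBE3A have 37.3% and 38.8% GC and RHOBTB3 has 42.6%. All tested genes had medians of -0.15 under 40% GC and -0.08 from 40% to 45%. The calls of RB1, UBE3A and RHOBTB3 were lost in 1, 4 and 5 of 19 alternatives. Their single-end log2 ratios were 0.02, -0.05 and -0.09. BLCAP was called higher in clone 1 (0.18, edgeR adjusted p = 0.0359), where the clone 2 value was 0.07 (adjusted p = 0.557). The count of 10 was 5 without wild type replicate 1, where 8.97% of all features were called. The IGF2R call was lost in 14 of 19 alternatives and the BLCAP call in 11 of 18. INS-IGF2, which overlaps IGF2 on the same strand and may share its reads, lost its call in 6 of 17. RTL9, which lies on chromosome X, lost its call in 4 of 19.

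TFPI2 and MKRN3 differed between the clones. TFPI2, a serine protease inhibitor, had 86, 45 and 71 counts in the wild type libraries, 76, 121 and 96 in clone 1, while those of clone 2 had 1 and 0. The ratio of wild type to clone 2 was 149 with a counting interval of 26.5 to 5922, and the difference between the clones was called (edgeR adjusted p = 1.24e-06). Its lower call in the mean of the clones rests on clone 2 (clone 1 value 0.43, adjusted p = 0.165) and was lost with the knockout libraries as 1 group (adjusted p = 0.889). MKRN3, a ubiquitin ligase gene of the Prader-Willi region and made from the paternal copy, had 0, 1 and 3 counts in wild type, 0, 0 and 2 in clone 1, while the clone 2 libraries had 23 and 37. The ratio of clone 2 to clone 1 was 44.3 (interval 11.7 to 374, adjusted p of the difference 0.00187). In the single-end pair TFPI2 had 51 counts in wild type and 1 in the knockout, and MKRN3 had 0 and 16.

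**Figure D4:**
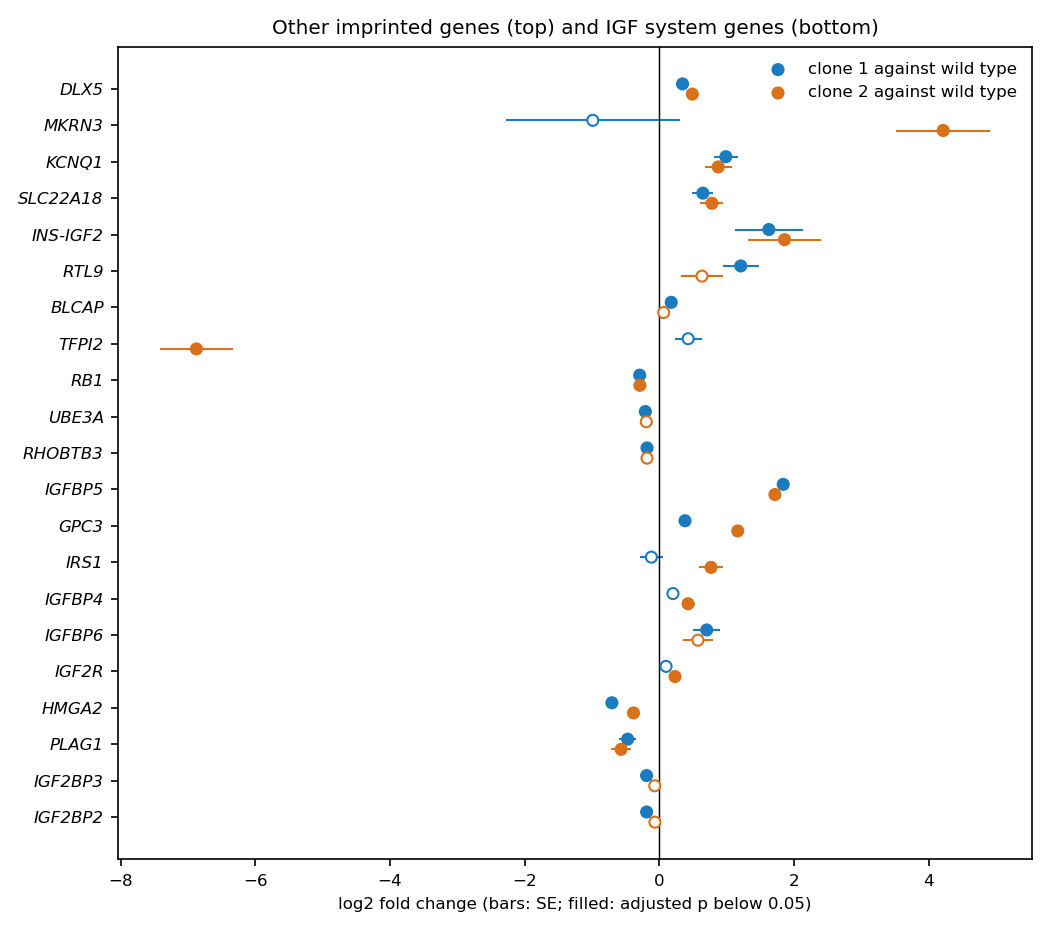
Log2 fold change in clone 1 and clone 2 against wild type for the named genes of the list of other imprinted genes (top) and of the IGF system (bottom), with standard errors as bars and filled points for adjusted p below 0.05. TFPI2 and MKRN3 lie far from 0 in clone 2 only, and IGFBP5 lies near 1.8 in both clones.

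Genes that act with IGF2 were followed in a list of 28, of which 19 were tested and 7 were called in the mean of the clones (5 higher, 2 lower), or 36.8% beside 18% of all features, with a median of 0.07. With the GC correction 6 were called, 2 higher and 4 lower, beside 15.5% of all features. Without wild type replicate 1 the count was 4, where 8.97% of all features were called. IGFBP5, a secreted binding protein that holds IGF ligands, was raised most, at 103 CPM in wild type (SD 6.11, n = 3), 371 in clone 1 (SD 21.6, n = 3) and 340 in clone 2 (SD 1.28, n = 2), a log2 fold change of 1.78 (edgeR adjusted p = 2.77e-10). The single-end values of IGFBP5 were 47.3 and 501 CPM. GPC3, a cell surface proteoglycan known to restrain growth, stood at 266 CPM in wild type (SD 17.5, n = 3), 346 in clone 1 (SD 32.3, n = 3) and 595 in clone 2 (SD 25.7, n = 2), and the clones differed (0.78, adjusted p = 4.94e-05). IGFBP4 (0.32) and IGFBP6 (0.64), also binding proteins, and IGF2R were the other genes called higher. The IGFBP4 and IGFBP6 calls were lost in 6 and 7 of 19 alternatives. Their single-end log2 ratios were 0.20 and -0.38, the latter with a counting interval of -0.85 to 0.06. The 2 called lower were HMGA2 (-0.54) and PLAG1 (-0.52), both DNA-binding factors, PLAG1 being known as an activator of the IGF2 gene. They have 38.8% and 36.7% GC, and all tested genes under 40% GC had a median of -0.15. The HMGA2 call was kept in all 19 alternatives, and the PLAG1 call was lost in 1. The single-end log2 ratio was -0.45 for HMGA2 (counting interval -0.53 to -0.37) and 0.08 for PLAG1 (-0.27 to 0.43). The receptor genes IGF1R (0.07, adjusted p = 0.524) and INSR (-0.12, adjusted p = 0.113) did not pass the test. IRS1, an adaptor of both receptors, was called in clone 2 (0.77, adjusted p = 0.0124), where the clone 1 value was -0.12. IGF2BP2 and IGF2BP3, which bind IGF2 mRNA, were called lower in clone 1 (-0.19 each), calls lost in 6 and 4 of 18 alternatives. In clone 2 the values were -0.07 each (edgeR adjusted p = 0.579 and 0.531). Their single-end log2 ratios were -0.06 and -0.02, with counting intervals that cover 0.

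Genes that set or keep imprints were followed in a list of 47 names, with 46 rows and 36 tested. In the mean of the clones 11 were called, all lower, or 30.6% beside 8.09% of all features called lower, with a median log2 fold change of -0.10 over the list. They included the Polycomb subunit gene SUZ12 (-0.37, edgeR adjusted p = 0.00027), the cohesin gene STAG2 (-0.30), CDCA7 (-0.23) and HELLS (-0.38), which encode partners in chromatin remodelling, the histone demethylase gene KDM1B (-0.22), the remodeller gene SMARCA5 (-0.18) and SMCHD1 (-0.30). The SUZ12 call was kept in all 19 alternatives. Those of STAG2, CDCA7, KDM1B, SMARCA5, HELLS and SMCHD1 were lost in 2, 3, 3, 6, 7 and 7 of them. TET1, a methylcytosine oxidase gene, was called lower in clone 1 (-0.36, adjusted p = 0.0371), a call lost in 5 of 18. The median GC content of the tested genes of the list was 43.6%, a range in which all tested genes had a median log2 fold change of -0.08. With the GC correction 3 of the list were called, beside 15.5% of all features. The count of 11 was 2 without wild type replicate 1, 4 without wild type replicate 2, 5 without wild type replicate 3 and 4 without clone 2 replicate 1, fits in which 8.97%, 10.7%, 11.8% and 11.5% of all features were called. DNMT1, the maintenance methyltransferase (-0.04), CTCF (0.00), TRIM28 (0.06) and ZNF445 (0.00) did not pass the test, and ZFP57 had no count in any paired-end library.

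Genes lying within 250 kb of a member numbered 242, of which 37 were tested and 7 were called in the mean of the clones, all higher and all on chromosome 11, beside 18% of all features called in either direction and 9.87% called higher. Together with ENSG00000240801, INS-IGF2, KCNQ1 and SLC22A18, these were the cathepsin D gene CTSD (0.49, edgeR adjusted p = 0.00072), ENSG00000250644 (0.45), whose span overlaps that of CTSD so that their counts may be shared, and CARS1 (0.15, adjusted p = 0.0456), whose call was lost in 17 of 19 alternatives. Near DLK1 and MEG3, 2 genes were tested, and both were called in clone 1. They were BEGAIN (0.91, adjusted p = 0.00999, against 0.27 in clone 2) and WDR25 (0.29, adjusted p = 0.0489, against 0.16 in clone 2). With a filter of at least 1 CPM in 2 libraries, or with the DESeq2 Wald test, the count of 7 was 4. In those fits 22.2% and 15.8% of all features were called.

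The 5 genes whose log2 CPM followed IGF2 most closely over the 8 paired-end libraries, among 13434 genes whose average log2 CPM reached 1, were RND2 (Pearson r = 0.994), PREX1 (0.994), SNX9 (0.992), SHISAL1 (0.991) and STRA6 (0.991). Each was higher in both clones than in wild type, STRA6 for instance at 2.19 CPM in wild type, 8.58 in clone 1 and 12.1 in clone 2. For H19 the nearest were MAN1C1 (0.950), CBX1 (0.949), CORO7-PAM16 (0.933), EFNA3 (0.931) and KLHL17 (0.930). These values are descriptions over 8 libraries that share group and base composition, the closest of many genes, and carry no p.

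**Figure D5:**
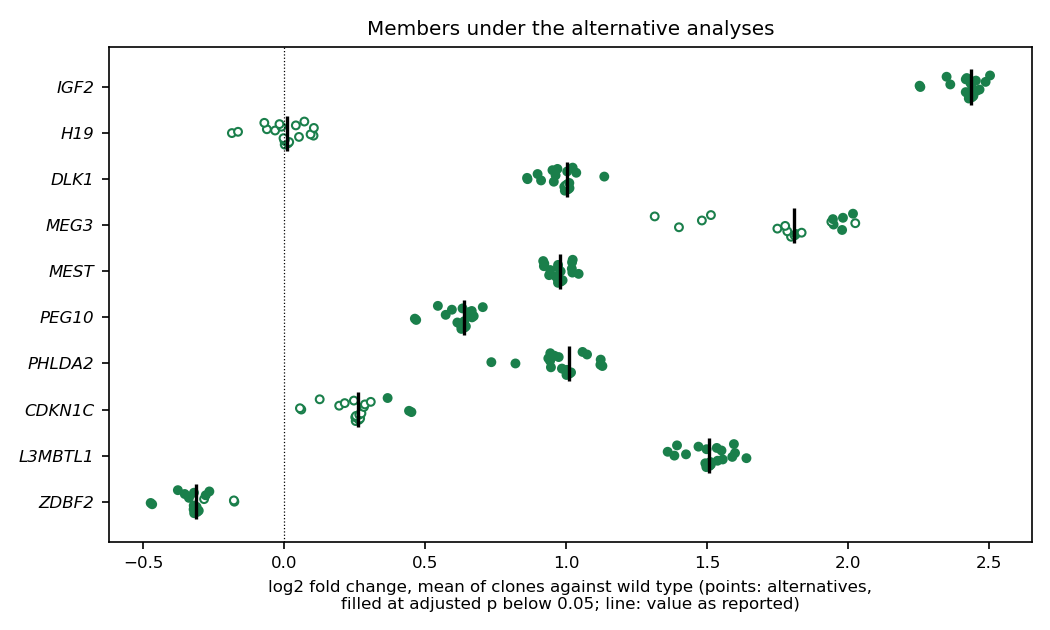
Log2 fold change of the clones' mean against wild type for each imprinted gene under each alternative analysis; points are alternatives, filled where the adjusted p is below 0.05, and the vertical line is the reported value. The IGF2 points stay between 2.25 and 2.5 and are all filled, whereas the H19 points lie on both sides of 0 and none is filled.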

How the data were processed

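RNA-seq of HAP1 cells was analysed from 2 deposited tables of whole-number counts per gene and repeat subfamily, covering 8 paired-end and 2 single-end libraries separately. Both tables are named for TEToolkit counts, STAR 2.5.2a and the hg38 build are named in the submitters' processing notes, and the annotation release, strand setting and treatment of multimapped reads are not stated in any source used. Per the labels' protocols, 65 ng of RNA went into each library. The single-end libraries carry the identical protocol text, which leaves their making uncertain. Counts were tested as deposited. Features were filtered with filterByExpr, scaled by TMM factors and fitted with 1 mean per group in edgeR 4.0.16 (quasi-likelihood F test, limma 3.58.1, R 4.3.3). Wild type was set against clone 1, clone 2 and the average of both clones, and the clones were set against each other. Adjustment was by the Benjamini-Hochberg method over all 20747 features. Fold changes on the log2 scale are those of the fit. The single-end pair was compared as CPM of total counts with exact counting intervals and no test, as it has 1 library a side. Ratios of read sums have exact 95% intervals that cover counting error only. Gene symbols came from a separate list of gene names, or from GENCODE 29 where that list had none. Coordinates came from GENCODE 29, and GC content from the longest transcript. The alternatives were DESeq2 1.42.0 (size factors or Wald test), TMM from gene rows, 2 other filters, a replicate block, a running-number term, numbers 1 to 5 alone, a per-library GC correction (spline with 4 degrees of freedom) with and without the block, all knockout libraries as 1 group, and leaving out each library. The counts of libraries within a group differed by more than sampling noise (chi-square per degree of freedom 4.39 to 21.0), so no library was a copy of another.

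The members and gene lists were chosen with earlier results of these data known. Named were all 10 members, and of each other list the called genes in the order of p, up to 8 per direction. Of the neighbours, up to 3 called genes per locus were named, and for IGF2 and H19 the 5 genes of highest correlation. COPG2, SGCE, BEGAIN, WDR25, IGF1R, INSR, DNMT1, CTCF, TRIM28, ZNF445 and ZFP57 fall outside that rule and were named after their values were seen.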

Additional observations from a re-analysis of the deposited data

Results flagged for a closer look

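Among the members, 3 genes differed between the knockout clones by a test of the difference itself, each higher in clone 2. The log2 difference of clone 2 against clone 1 was 1.14 for DLK1, 0.96 for MEST and 1.38 for L3MBTL1. These calls were lost in 2, 12 and 3 of 18 alternatives. Among the other imprinted genes the same test singled out TFPI2, at -7.30, and MKRN3, at 5.21 (fitted values that rest on counts of 0 to 2 per library in the lower group). In the IGF system it singled out GPC3 at 0.78, HMGA2 at 0.32 and IRS1 at 0.89.

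The single-end libraries, which entered no test, held counts for genes with none in the 8 paired-end libraries. NNAT, an imprinted gene that lies inside BLCAP, had 66 counts in the single-end wild type library and 68 in the single-end knockout. PAPPA, a protease that cuts IGF binding proteins, had 30 and 25. No source used says whether both tables were counted in the same way, so a 0 in one and a count in the other are given as listed.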

How the results depend on the processing

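Of 40 member results (10 genes in 4 comparisons), 17 kept their direction and side of the threshold under every alternative, among them IGF2 in all comparisons. In clone 1, 4 members were called as reported, beside 16% of all features, and 2 with the GC correction, beside 13%. The number called was 2 with the correction and the replicate block (12.9%), and 2 to 4 with 1 library left out (7.79% to 15.6%). Between the clones it was 3, then 0 in libraries numbered 1 to 5 alone and 0 to 2 with 1 library left out. Other imprinted genes called numbered 10 and fell as low as 5 (5 to 10) with 1 library left out. IGF system genes numbered 7, then 4 with the knockouts as 1 group, 4 with the GC correction and block, and 4 to 8 with 1 library left out. Imprint regulators numbered 11, then 18 with the running-number term, 20 in numbers 1 to 5 alone, 3 with the GC correction, 3 with it and the block, and 2 to 12 with 1 library left out. Neighbours numbered 7, then 4 with the CPM filter and 4 with the DESeq2 Wald test (6 with DESeq2 size factors). Over all features, 18% were called in the mean of the clones as reported, 19.7% with the running-number term and 15.5% with the GC correction. The share was 14.8% with that and the block, 16.1% with the knockouts as 1 group, and 8.97% to 20.6% with 1 library left out. It was 22.2% with the CPM filter and 15.8% with the DESeq2 Wald test. Between the clones it was below the reported 2.09% in every fit with 1 library left out. The cause was not tested. Among these member results, signs changed only for values that did not pass the test. H19 in clone 1 was 0.031 with the running-number term and -0.15 to 0.016 with 1 library left out. H19 in clone 2 was -0.089 with the GC correction, -0.052 with the block as well, and -0.054 to 0.23 with 1 library left out. H19 in the mean was -0.0031 with the knockouts as 1 group, -0.19 with the GC correction, -0.16 with the block as well and -0.071 to 0.10 with 1 library left out. With 1 library left out, the clone difference of MEG3 was -0.18 to 1.37, and CDKN1C in clone 2 was -0.0098 to 0.47. The clone difference of CDKN1C was 0.063 in numbers 1 to 5 alone and -0.27 to 0.21 with 1 library left out. The clone difference of ZDBF2 was 0.038 with the running-number term, 0.074 in numbers 1 to 5 alone, and -0.12 to 0.10 with 1 library left out. Where a clone kept 1 library, its spread was assumed to be that of the other groups. Of 7 same-numbered pairs, 2 had correlated deviations over 0.1 (range -0.23 to 0.25). Both were pairs of clone 1 with clone 2, at 0.25 for replicate 1 and 0.20 for replicate 2. Whether libraries of the same number share a batch was not tested. With the replicate block 8 members were called in the mean of the clones, beside 20.5% of all features. MEG3 had 11 counts over the wild type libraries, and 24 of its 37 clone 1 counts came from replicate 3.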
